A study of Homo sapiens with 18 samples.

Results

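The data described here are an interaction: the difference between cells sorted at 4N and at 2N DNA content under cytochalasin D, less the same difference in untreated cells. It was taken on log2 values for every gene averaging 0.5 RPKM or more, which were 13037 of the 57773 identifiers in the deposited table, and it rests on 12 of the 18 libraries of the series. The cells were hTERT-RPE1, an established, near-diploid human line of retinal pigment epithelium immortalised with telomerase. The 4 groups, with libraries numbered 1 to 3 in each, were cytochalasin D 4N cells, cytochalasin D 2N cells, untreated 4N cells and untreated 2N cells, and the remaining 6 libraries were 4N and 2N cells given the Aurora kinase inhibitor ZM447439. All cultures were grown in medium with 10% serum and took up Hoechst (2 µg/mL, 60 min) for sorting by DNA content. The labels put the same text, ZM447439 at 2.5 µM for 24 h, on all libraries and name neither a dose nor a duration for cytochalasin D, so what the cytochalasin D cultures received beyond that drug is known only from their group names. The 4N gate defines cells by DNA content alone. RPKM, reads scaled to library size and gene length, are relative to the library, and in such bulk samples fewer cells of a type and less RNA per cell cannot be told apart.

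Cytochalasin D blocks actin polymerisation, and dividing cells then fail cytokinesis and become tetraploid. In an untreated diploid culture a 4N gate takes mainly cells in G2 and mitosis, whose characteristic transcripts are those of the mitotic programme, switched on by FOXM1 and by the MuvB complex with B-MYB through promoter elements called CHR. A 2N gate takes mainly G1 and early S cells, which carry the earlier wave of replication genes driven by E2F factors. A 4N gate on a culture that has failed cytokinesis can also hold tetraploid G1 cells.

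Throughout, a difference is 4N minus 2N on the log2(RPKM + 0.5) scale, which understates changes of genes near or under 0.5 RPKM. A gene is called lower or higher by the sign of the interaction when limma's adjusted p (Benjamini-Hochberg over all 13037 genes, two-sided) was under 0.05. Lower therefore means that the step from 2N to 4N was smaller, or more negative, under cytochalasin D than in untreated cells. Replicates of the series are separate samples by the labels, and the p-values measure the spread between these libraries. No label says that libraries of the same number share a culture, and the main fit does not pair them. The block by culture is an alternative fit that takes a 4N and a 2N library of the same number as a pair.

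The libraries implied by the deposited values held 51126729 to 78282444 reads. Both cytochalasin D libraries numbered 1 lay farther than the rest from their own groups (mean root-mean-square log2 distance 0.306 in 4N and 0.304 in 2N cells, against 0.231 to 0.246 for the other cytochalasin D libraries). So did both untreated libraries numbered 3 (0.253 in 4N and 0.255 in 2N cells, against 0.207 to 0.214). Of the markers of retinal pigment epithelium, BEST1 averaged 117 RPKM in cytochalasin D 4N cells, 124 in cytochalasin D 2N cells, 50.4 in untreated 4N cells and 50.5 in untreated 2N cells. Genes overlapping BEST1 were not looked up and the kit did not mark strand, so its value may include reads of another gene. KRT18, a keratin of simple epithelia, averaged 44.3, 52.2, 66.2 and 80.2 RPKM in the same order of groups, and RPE65 and TYR, markers of the differentiated tissue, were near 0 in all 4 groups. PMEL averaged 0.546, 0.562, 4.44 and 3.64 RPKM, EZR 3.43, 3.74, 13.1 and 9.10, and RDH10 1.78, 1.86, 0.490 and 0.616. KRT8 and CDH2 were also lower under cytochalasin D than in untreated cells in both sorts, and OTX2 was higher. Of the fibroblast and mesenchymal markers, vimentin (VIM) averaged 526, 480, 847 and 767 RPKM in that order, THY1 28.6, 32.8, 71.3 and 64.0, PDGFRB 6.11, 6.17, 1.01 and 2.07 and COL1A1 4.18, 4.88, 4.27 and 4.39, while COL1A2, COL3A1, DCN and LUM were near 0. Of the blood markers PTPRC, CD3E and HBB were near 0, and CD68, a lysosomal protein of macrophages, averaged 34.5, 33.2, 20.7 and 19.7.

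Cytochalasin D changed the step from 2N to 4N for 1023 genes, 7.85% of those tested, and 788 of them (6.04%) were called lower and 235 (1.8%) higher. These are the background shares of every list or class count in the main fit. The genes called lower had a median difference of -0.01 under cytochalasin D and 0.36 in untreated cells, with a median interaction of -0.39. The genes called higher had a median difference of 0.04 under cytochalasin D and -0.45 in untreated cells, with a median interaction of 0.50. In both directions, then, the median gap between sorts lay close to 0 under cytochalasin D and away from 0 in untreated cells, as the plot of the 2 differences shows gene by gene. The interaction is built from both differences and shares their libraries. Over all tested genes the median interaction was -0.04. After rescaling the libraries to a common median ratio, 313 genes were called higher and 521 lower.

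**Figure D1:**
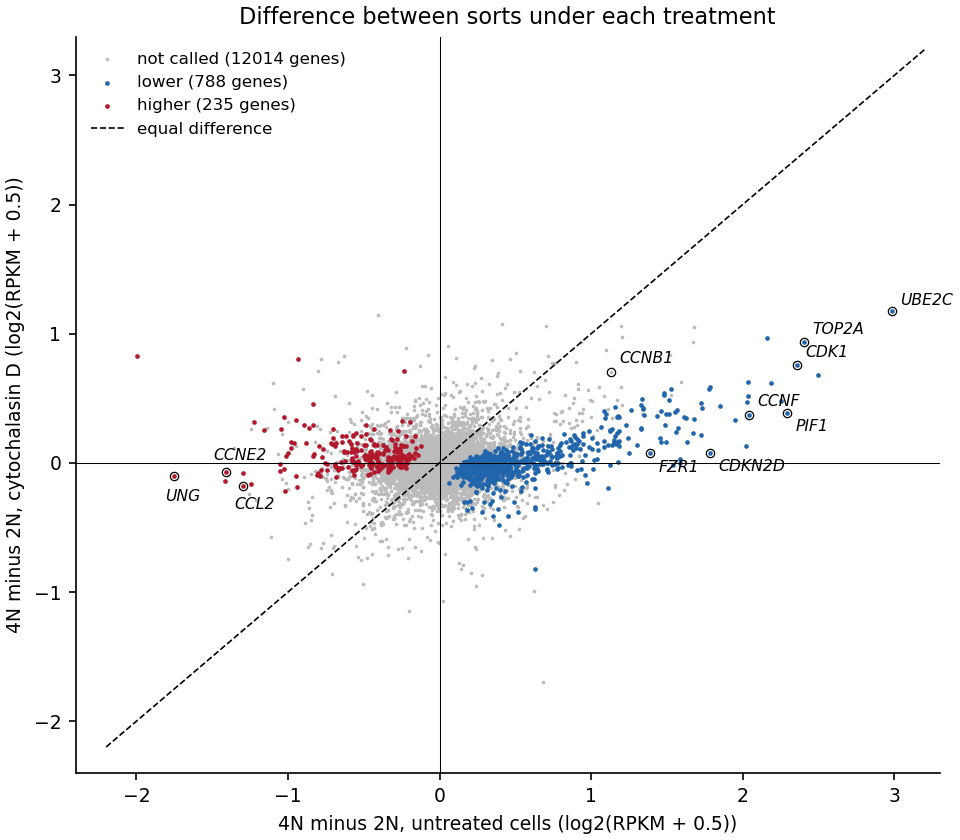
Difference between 4N and 2N cells on the log2(RPKM + 0.5) scale under cytochalasin D (vertical axis) against untreated cells (horizontal axis), 1 point per tested gene, with the called genes coloured by direction; 1 gene lies outside the axes. On the horizontal axis the median is 0.36 for genes called lower and -0.45 for those called higher, against -0.01 and 0.04 on the vertical axis, where single genes such as UBE2C (1.18) lie well above 0.

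Each treatment's own step was tested in the same limma fit. In untreated cells 1679 genes (12.9%) were called up in 4N cells and 593 (4.55%) down. Under cytochalasin D 0 genes (0.0%) were called at an adjusted p under 0.05, the lowest being 0.176, and 682 passed at an unadjusted p under 0.05. The count was again 0 when the cytochalasin D pair numbered 1 was left out, and 5 without these and both untreated libraries numbered 3. Without those 4 and both ZM447439 libraries numbered 1, which are not in the contrast but enter the shared variance, 476 genes (3.65%) were called up and 465 (3.57%) down under cytochalasin D. Leaving out libraries for their distance lowers the spread within groups by construction. The interaction itself was tested again the same way and gave 2048 genes called lower (15.7%) and 720 higher (5.52%) without the 6 libraries. With the 4N and 2N libraries of the same number kept together as a block it gave 1424 lower (10.9%) and 500 higher (3.84%). These are the background shares of every list or class count with the block.

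The cultures also differed between treatments within each sort. In 4N cells 5793 genes (44.4%) were called down and 3398 (26.1%) up under cytochalasin D relative to untreated cells, and in 2N cells 5149 (39.5%) were called down and 3539 (27.1%) up. In the 5 mitotic lists described below, the list medians of cytochalasin D minus untreated ran from -2.68 to -1.70 in 4N cells. In 2N cells they ran from -1.81 to -1.06. Many mitotic genes were therefore measured from a lower level under cytochalasin D in both sorts, where the added 0.5 RPKM weighs more. Other scales show how far the calls rest on it. With a pseudocount of 0.1 RPKM, 658 genes (5.05%) were called lower and 232 (1.78%) higher, and with RPM, the same reads scaled to library size alone, 1176 of 20106 genes (5.85%) were called lower and 486 (2.42%) higher. Of the 1023 genes, 874 were also called with a pseudocount of 0.1. Of the 961 that had a value in RPM, 846 were also called in RPM, and 961 had the same sign.

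Members of the 5 mitotic lists were 68 of the 788 genes called lower, so most lowered calls lay outside these lists. In the lists of mitotic cyclins and kinases, anaphase-promoting complex and checkpoint genes, spindle and cytokinesis genes, centromere genes and chromosome condensation genes, 121 members were tested, 68 were called lower and 0 higher, against 6.04% and 1.8% of all tested genes. Their median interaction was -0.70. Leaving out any 1 library gave 58 to 68 members called lower, and with a pseudocount of 0.1 there were 33, against 5.05% of all genes. Without both untreated libraries numbered 3 and both cytochalasin D libraries numbered 1 there were 41, and without the 6 libraries that stood apart 91 were called lower and 8 higher, against 15.7% and 5.52%. Within cytochalasin D and without the 6 libraries that stood apart, 87 of the 121 were called up in 4N cells and 1 down, against 3.65% and 3.57% of all genes. In those libraries the median difference of these 121 genes within cytochalasin D was 0.32.

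**Figure D2:**
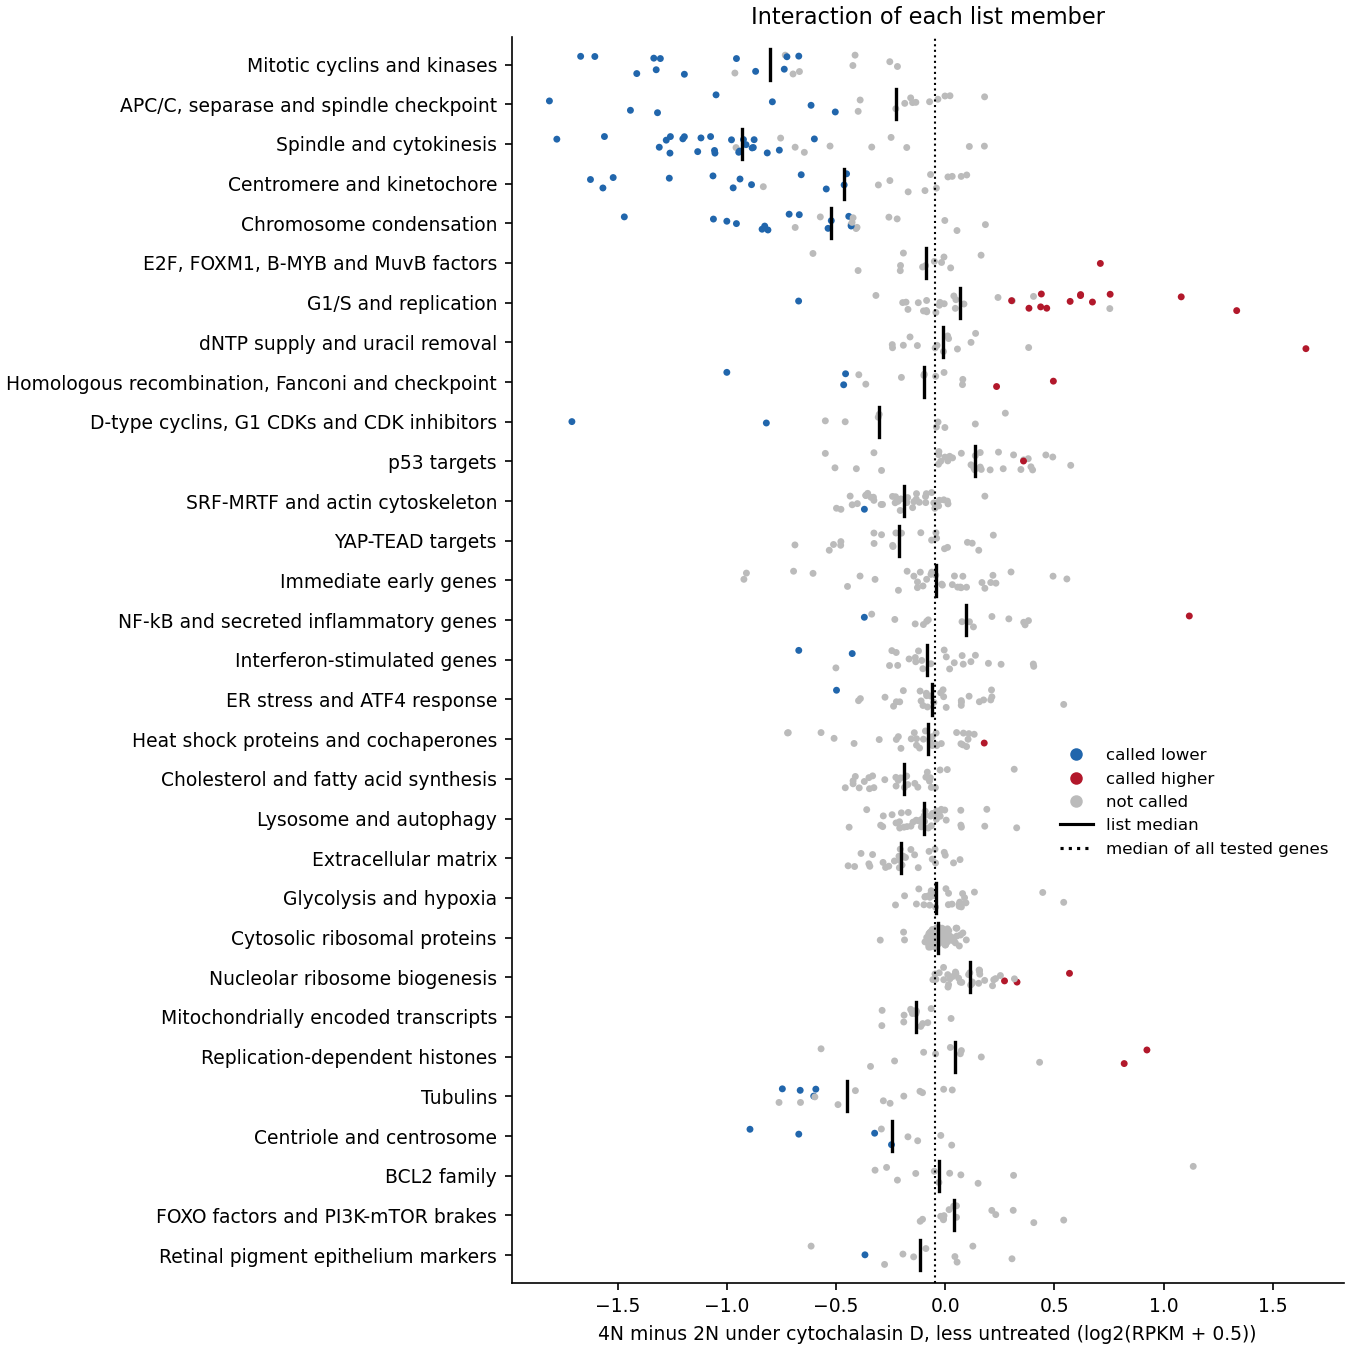
Interaction of every tested member of each gene list on the log2(RPKM + 0.5) scale, with called members coloured, the list median as a black bar and the median of all tested genes (-0.04) as a dotted line. The 5 mitotic lists at the top reach from near 0 down to -1.81, and G1/S members reach up to 1.34.

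Mitotic cyclins and kinases drive entry into and passage through M phase. Of its 23 listed members 20 were tested, 12 were called lower and 0 higher, and the list median of the interaction was -0.80. The median difference was 0.40 under cytochalasin D and 1.31 in untreated cells, where 18 members were called up in 4N cells. Cyclin F (CCNF), the substrate receptor of an SCF ubiquitin ligase that accumulates in G2, had 0.413, 0.437 and 0.414 RPKM in cytochalasin D 4N cells and 0.286, 0.176 and 0.176 in cytochalasin D 2N cells, against 3.92, 3.85 and 5.19 in untreated 4N cells and 0.703, 0.814 and 0.490 in untreated 2N cells. The 4N and 2N libraries did not overlap within either treatment, and the untreated 4N libraries stood far above the rest. Its interaction was -1.67 (SE 0.16, limma adjusted p = 3.05e-05). CCNF overlaps 2 genes on the opposite strand, the higher with a mean of 4.34 RPKM. The kit did not mark strand, so reads cannot be told apart where the genes overlap.

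CDK1, the kinase that triggers mitosis, had 1.33, 0.771 and 0.860 RPKM in cytochalasin D 4N cells and 0.735, 0.239 and 0.218 in cytochalasin D 2N cells, against 13.1, 13.5 and 14.8 in untreated 4N cells and 2.37, 2.97 and 1.66 in untreated 2N cells. The cytochalasin D 2N library numbered 1 was the highest of its group, and untreated levels were above cytochalasin D levels in each sort with no overlap. The interaction was -1.60 (SE 0.35, limma adjusted p = 0.0116) on a difference of 0.76 under cytochalasin D and 2.36 in untreated cells. It was -1.31 with a pseudocount of 0.1 (adjusted p = 0.160) and -1.17 in RPM (adjusted p = 0.215), so the call for CDK1 depended on the scale. It also missed the threshold without both untreated libraries numbered 3 (0.0749) and without these and both cytochalasin D libraries numbered 1 (0.0651).

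The Aurora kinases followed the same order of levels. AURKA, which matures centrosomes and builds the spindle, had 0.806, 0.606 and 0.599 RPKM in cytochalasin D 4N cells and 0.575, 0.270 and 0.265 in cytochalasin D 2N cells, against 8.96, 8.69 and 9.37 in untreated 4N cells and 2.48, 2.56 and 1.49 in untreated 2N cells. Within cytochalasin D the sorts were barely separate, with a lowest 4N value of 0.599 and a highest 2N value of 0.575. Its interaction was -1.41 (SE 0.27, limma adjusted p = 0.00517; 0.0833 with a pseudocount of 0.1 and 0.123 in RPM). AURKB, the kinase of the chromosomal passenger complex, had an interaction of -1.19 (SE 0.25, limma adjusted p = 0.00808; 0.0510 with a pseudocount of 0.1 and 0.0768 without both untreated libraries numbered 3 and both cytochalasin D libraries numbered 1).

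Among the other kinases, CDC25B, the phosphatase that activates CDK1, was called lower at -1.33, the checkpoint kinase TTK at -1.32, the CDK subunit CKS2 at -1.30, NEK2 at -0.96 and BUB1B at -0.87 (limma adjusted p from 0.000152 to 0.0374), and NEK2 lost its call with the block by culture (0.0756). PLK1 had an interaction of -0.73, cyclin A2 (CCNA2) -0.96 and cyclin B1 (CCNB1) -0.42, with adjusted p of 0.261, 0.0582 and 0.539, and these were not called. In 4 of 31 alternatives CCNA2 was called lower (lowest limma adjusted p = 0.000774). CCNA2 had 2.13, 1.87 and 1.93 RPKM in cytochalasin D 4N cells and 1.5, 0.936 and 0.917 in cytochalasin D 2N cells, against 34.4, 33.9 and 39.2 in untreated 4N cells and 12.4, 13.5 and 9.05 in untreated 2N cells. All 4 of its groups were separate, and the cytochalasin D 2N library numbered 1 was again the highest of its group. With a pseudocount of 0.1, 4 of the 20 tested members of the list were called lower, and in RPM 5 of 23. Without both untreated libraries numbered 3 and both cytochalasin D libraries numbered 1 it was 6 of 20, and without the 6 libraries that stood apart 18 of 20.

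The anaphase-promoting complex marks cyclins and securin for destruction. Of 22 members of this list 19 were tested, 7 were called lower and 0 higher, with a median interaction of -0.23. Without both untreated libraries numbered 3 and both cytochalasin D libraries numbered 1, 4 members were called lower. UBE2C, its ubiquitin-conjugating enzyme, had 3.19, 2.80 and 2.98 RPKM in cytochalasin D 4N cells and 1.76, 0.789 and 0.763 in cytochalasin D 2N cells, against 47.1, 46.6 and 48.4 in untreated 4N cells and 6.66, 7.28 and 3.45 in untreated 2N cells. The sorts were separate in each treatment, by 1.18 under cytochalasin D and 2.99 in untreated cells. The interaction was -1.81 (SE 0.39, limma adjusted p = 0.0101), and without both untreated libraries numbered 3 and both cytochalasin D libraries numbered 1 the value was -1.26 and no longer called (adjusted p = 0.0717).

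FZR1, the coactivator CDH1 that keeps the complex active in G1, showed the lowest adjusted p of all genes. It had 1.40, 1.45 and 1.39 RPKM in cytochalasin D 4N cells and 1.37, 1.2 and 1.37 in cytochalasin D 2N cells, against 4.08, 3.91 and 3.88 in untreated 4N cells and 1.18, 1.24 and 1.18 in untreated 2N cells. Both cytochalasin D groups and the untreated 2N group lay between 1.18 and 1.45 RPKM, and the untreated 4N libraries alone were higher. The interaction was -1.32 (SE 0.06, limma adjusted p = 4.43e-08). FZR1 overlaps MFSD12 on the opposite strand, and the kit did not mark strand, so reads of the 2 genes cannot be told apart where they overlap.

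The checkpoint protein BUB3 was called lower at -1.05, the E2 enzyme UBE2S at -0.79, the complex subunit CDC27 at -0.61 and separase (ESPL1), the protease that cuts cohesin, at -1.44 (limma adjusted p from 2.57e-05 to 0.00961). The activator CDC20 had an interaction of -0.13 and securin (PTTG1) 0.18, with adjusted p of 0.917 and 0.827. CDC20 had 6.02, 6.99 and 6.44 RPKM in cytochalasin D 4N cells and 4.02, 2.41 and 2.32 in cytochalasin D 2N cells, against 74.2, 72.2 and 73.3 in untreated 4N cells and 34.9, 35.0 and 25.9 in untreated 2N cells. Its 4 groups did not overlap, and its step was 1.06 under cytochalasin D and 1.2 in untreated cells.

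Spindle and cytokinesis genes had the lowest list median. Of 39 members 34 were tested, 24 were called lower and 0 higher, with a median interaction of -0.93 and median differences of 0.37 under cytochalasin D and 1.23 in untreated cells. All 34 were higher on average in 4N than in 2N cells under each treatment, and 32 were called up in untreated 4N cells. FAM83D, which brings casein kinase 1 to the spindle, was lowest at -1.78 (SE 0.24, limma adjusted p = 0.000442), although in RPM the adjusted p was 0.152. PSRC1, a microtubule-binding spindle protein, followed at -1.56 and the GTPase-activating protein ARHGAP11A at -1.31 (limma adjusted p = 0.000466 and 0.000697).

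Midzone and ring genes were called in part. KIF23 (MKLP1) had an interaction of -1.28 and its centralspindlin partner RACGAP1 -0.94, and ECT2, the RHOA exchange factor they recruit to start furrowing, had -0.88 (limma adjusted p = 0.00458, 0.00598 and 0.00147). The spindle motors KIF11 and KIF2C were called lower at -1.19 and -1.20, and ASPM, which focuses spindle poles, at -1.26. Anillin (ANLN), which ties the ring to the membrane, had -0.96 with an adjusted p of 0.0554 (0.0202 with the block by culture), and KIF20A, a motor of late cytokinesis, had 0.11 with an adjusted p of 0.937. KIF20A had 3.3, 3.64 and 3.51 RPKM in cytochalasin D 4N cells and 2.38, 1.48 and 1.49 in cytochalasin D 2N cells, against 36.4, 34.2 and 32.6 in untreated 4N cells and 22.8, 21.4 and 18.3 in untreated 2N cells. Its sorts were separate in both treatments, by 0.82 under cytochalasin D and 0.71 in untreated cells. With a pseudocount of 0.1, 11 of the 34 members were called lower, and in RPM 10 of 39.

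Centromere and kinetochore genes attach chromosomes to the spindle. Of 35 members 23 were tested, 12 were called lower and 0 higher, with a median interaction of -0.46. INCENP, the scaffold of the passenger complex, had 0.607, 0.535 and 0.492 RPKM in cytochalasin D 4N cells and 0.431, 0.278 and 0.294 in cytochalasin D 2N cells, against 6.52, 5.87 and 6.48 in untreated 4N cells and 1.44, 1.49 and 0.900 in untreated 2N cells. The sorts were separate under both treatments, and the interaction was -1.62 (SE 0.18, limma adjusted p = 0.000123). HJURP, the chaperone that loads CENP-A, was called lower at -1.57, CDCA8 (borealin) at -1.52, the motor CENPE at -1.26 and NDC80 at -1.06 (limma adjusted p from 0.000117 to 0.00275), and for HJURP and CDCA8 the adjusted p with a pseudocount of 0.1 was 0.0606 and 0.0758. BIRC5 (survivin), the remaining passenger subunit, had an interaction of 0.01 (adjusted p = 0.992) on differences of 0.77 under cytochalasin D and 0.76 in untreated cells.

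Chromosome condensation genes gave 13 called lower and 0 higher of 25 tested, with a median of -0.52. TOP2A, the topoisomerase that untangles sister chromatids, had 3.55, 3.28 and 3.11 RPKM in cytochalasin D 4N cells and 2.19, 1.23 and 1.2 in cytochalasin D 2N cells, against 40.8, 40.0 and 47.3 in untreated 4N cells and 8.09, 8.66 and 6.34 in untreated 2N cells. The 4 groups were separate, with a step of 0.94 under cytochalasin D and 2.4 in untreated cells and an interaction of -1.47 (SE 0.26, limma adjusted p = 0.00294). The condensin subunits NCAPG and NCAPH were called lower at -1.06 and -0.81, the chromatin protein HMGB2 at -0.96 and lamin B1 (LMNB1) at -0.52. MKI67, which coats mitotic chromosomes, had an interaction of -0.69 (adjusted p = 0.289), and without the 6 libraries that stood apart the value was -0.20. With a pseudocount of 0.1, 6 of the 25 were called lower. Leaving out both untreated libraries numbered 3, or these and both cytochalasin D libraries numbered 1, gave 4 members called lower.

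PIF1, a DNA helicase, had the lowest interaction of the genes named here, at -1.90 (SE 0.14, limma adjusted p = 7.48e-06). It had 0.453, 0.553 and 0.479 RPKM in cytochalasin D 4N cells and 0.274, 0.263 and 0.238 in cytochalasin D 2N cells, against 3.86, 4.42 and 5.22 in untreated 4N cells and 0.606, 0.561 and 0.387 in untreated 2N cells. The untreated 4N libraries again stood apart, while the lowest untreated 2N value lay below all 3 cytochalasin D 4N values. KPNA2P3 and KPNA2P2, pseudogenes of the nuclear import gene KPNA2, had interactions of -1.59 and -1.56, but their reads cannot be separated with certainty from those of near-identical copies.

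**Figure D3:**
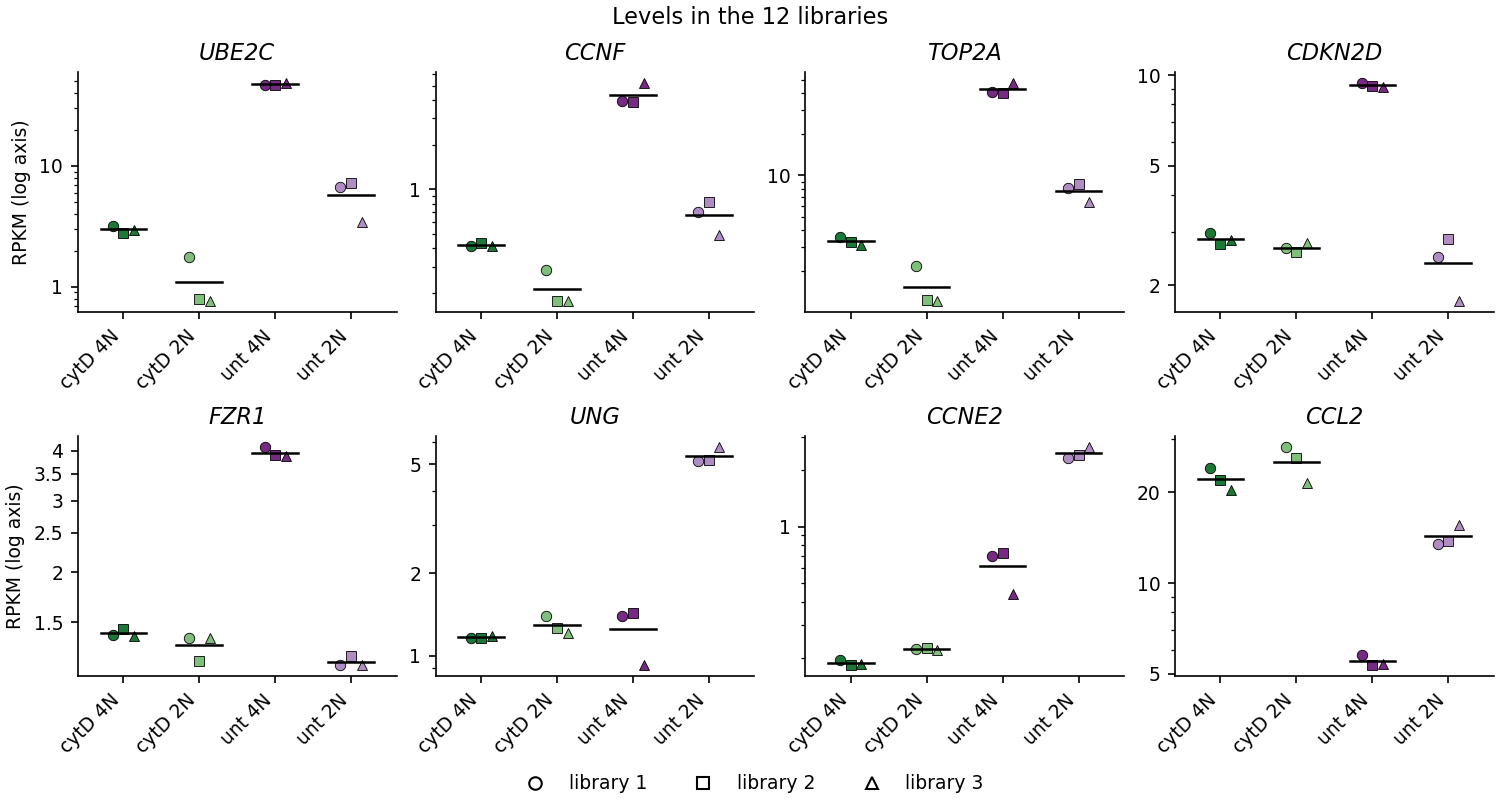
RPKM of 8 genes in each of the 12 libraries on a log axis, 1 panel per gene, with groups from left to right cytochalasin D 4N, cytochalasin D 2N, untreated 4N and untreated 2N, and symbols giving the library number. UBE2C, CCNF and TOP2A are highest in untreated 4N cells, CDKN2D and FZR1 are high in untreated 4N cells alone, and UNG and CCNE2 are highest in untreated 2N cells.

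Among the lowered genes were CDKN2D and CDKN2C, CDK inhibitors of the INK4 class. CDKN2D (p19), which binds CDK4 and CDK6, had 2.98, 2.74 and 2.82 RPKM in cytochalasin D 4N cells and 2.66, 2.59 and 2.76 in cytochalasin D 2N cells, against 9.41, 9.23 and 9.11 in untreated 4N cells and 2.47, 2.84 and 1.77 in untreated 2N cells. The cytochalasin D groups overlapped, and only the untreated 4N libraries were apart. Its interaction was -1.71 (SE 0.16, limma adjusted p = 2.57e-05) on differences of 0.08 under cytochalasin D and 1.79 in untreated cells.

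CDKN2C (p18) had 1.27, 1.33 and 1.46 RPKM in cytochalasin D 4N cells and 1.13, 0.888 and 0.830 in cytochalasin D 2N cells, against 5.56, 5.55 and 6.44 in untreated 4N cells and 2.29, 2.55 and 2.06 in untreated 2N cells, with all groups separate. The interaction was -0.82 (SE 0.13, limma adjusted p = 0.00185). These were the 2 members called lower of the 11 tested in the list of D-type cyclins, G1 kinases and inhibitors, and 0 were called higher, and with the block by culture 4 were called lower, against 10.9% of all genes. CCND1 (-0.55), CDKN1B (p27, -0.46) and CDKN1C (p57, 0.28) were not called, with adjusted p of 0.473, 0.140 and 0.712, but with the replicate block by culture the adjusted p was 0.0380 for CCND1 and 0.00964 for CDKN1B.

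Replication genes moved the other way. Of 54 members of the G1/S and replication list 34 were tested, 12 were called higher and 1 lower, against 1.8% and 6.04% of all tested genes, and leaving out any 1 library gave 11 to 15 called higher. The list median was 0.07, and most members were not called. In untreated cells 14 members were called down in 4N cells and 4 up. CCNE2, the cyclin E that starts S phase with CDK2, had 0.195, 0.184 and 0.186 RPKM in cytochalasin D 4N cells and 0.225, 0.226 and 0.221 in cytochalasin D 2N cells, against 0.702, 0.722 and 0.437 in untreated 4N cells and 2.31, 2.42 and 2.65 in untreated 2N cells. The untreated 2N libraries were the highest and untreated 4N library 3 was the lowest of its group. The interaction was 1.34 (SE 0.11, limma adjusted p = 1.03e-05). CCNE2 overlaps 4 genes on the opposite strand, the highest with a mean of 0.884 RPKM, and reads in the overlap cannot be told apart.

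CDC6, which loads the MCM helicase at origins, had 0.251, 0.195 and 0.173 RPKM in cytochalasin D 4N cells and 0.360, 0.270 and 0.279 in cytochalasin D 2N cells, against 3.13, 3.24 and 2.99 in untreated 4N cells and 6.16, 6.33 and 6.90 in untreated 2N cells. Within each treatment the 2N libraries were above the 4N libraries without overlap. The interaction was 0.76 (SE 0.11, limma adjusted p = 0.00111, and 0.0901 in RPM). FAM111B, a protease gene of S phase, had an interaction of 1.08 (limma adjusted p = 4.23e-06, and 0.127 in RPM), and its cytochalasin D libraries implied as few as 42 reads.

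The MCM helicase subunits split. MCM6, MCM3, MCM2 and MCM5 were called higher at 0.62, 0.62, 0.57 and 0.44, while MCM4 had 0.31 (adjusted p = 0.0671) and MCM7 0.00 (adjusted p = 0.992). MCM6 had 0.278, 0.286 and 0.296 RPKM in cytochalasin D 4N cells and 0.361, 0.291 and 0.298 in cytochalasin D 2N cells, against 2.16, 2.16 and 2.10 in untreated 4N cells and 3.73, 3.65 and 3.75 in untreated 2N cells. The untreated sorts were separate, and the cytochalasin D sorts overlapped. SLBP, which processes histone mRNA, was called higher at 0.67, the chromatin assembly subunits CHAF1B and CHAF1A at 0.47 and 0.38, DTL at 0.44 and the clamp loader subunit RFC4 at 0.30. FAM111A, a protease at replication forks, was the member called lower (-0.67, limma adjusted p = 0.00294), and the clamp PCNA had 0.75 with an adjusted p of 0.107 (0.000962 with the block by culture).

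UNG, the glycosylase that removes uracil from DNA, had the highest interaction of the protein-coding genes named here, at 1.65 (SE 0.13, limma adjusted p = 1.03e-05). It had 1.16, 1.16 and 1.18 RPKM in cytochalasin D 4N cells and 1.40, 1.26 and 1.21 in cytochalasin D 2N cells, against 1.39, 1.43 and 0.924 in untreated 4N cells and 5.13, 5.16 and 5.77 in untreated 2N cells. The untreated 2N libraries were the only ones above 1.43 RPKM. UNG was the single member called higher of 15 tested in the list of dNTP supply and uracil removal, and 0 were called lower (1 with the block by culture). The reductase subunit RRM2 had -0.16 and thymidine kinase TK1 0.38, with adjusted p of 0.843 and 0.554.

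E2F1, the transcription factor of this wave, was the member called higher among 13 tested E2F, FOXM1 and MuvB genes, with 0 called lower. With the block by culture 2 of the 13 were called higher and 2 lower, against 3.84% and 10.9% of all genes. E2F1 had 0.351, 0.345 and 0.377 RPKM in cytochalasin D 4N cells and 0.474, 0.368 and 0.414 in cytochalasin D 2N cells, against 3.86, 3.85 and 3.17 in untreated 4N cells and 6.26, 6.62 and 7.25 in untreated 2N cells. The untreated sorts were separate, the cytochalasin D sorts overlapped, and the interaction was 0.71 (SE 0.10, limma adjusted p = 0.000874). FOXM1 had 2.25, 3.67 and 3.70 RPKM in cytochalasin D 4N cells and 1.88, 1.86 and 1.75 in cytochalasin D 2N cells, against 17.5, 17.4 and 18.4 in untreated 4N cells and 11.2, 10.9 and 10.3 in untreated 2N cells. All its groups were separate. Its interaction was -0.05 (adjusted p = 0.958), and without the 6 libraries that stood apart the value was 0.23 (adjusted p = 0.0130), so its sign was not settled.

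The DNA repair list, of 14 tested genes, had 2 called higher and 3 lower, against 1.8% and 6.04% of all tested genes. With the block by culture it had 2 and 5, against 3.84% and 10.9%. With a pseudocount of 0.1 it had 2 and 1, against 1.78% and 5.05%. Without both untreated libraries numbered 3 it had 1 and 1, against 113 and 452 of 13037 genes. The mismatch repair subunit MSH6 was called higher at 0.50 (limma adjusted p = 0.000334), with 0.665, 0.566 and 0.611 RPKM in cytochalasin D 4N cells and 0.686, 0.601 and 0.595 in cytochalasin D 2N cells, against 0.945, 0.929 and 0.897 in untreated 4N cells and 1.51, 1.46 and 1.63 in untreated 2N cells. H2AX, the histone variant phosphorylated at DNA breaks, was called lower at -1.0 (SE 0.10, limma adjusted p = 6.08e-05). It had 15.8, 18.4 and 17.2 RPKM in cytochalasin D 4N cells and 16.8, 14.1 and 15.7 in cytochalasin D 2N cells, against 162, 164 and 168 in untreated 4N cells and 73.7, 80.2 and 69.6 in untreated 2N cells. The cytochalasin D sorts of H2AX and MSH6 overlapped and their untreated sorts did not. RAD51AP1 was called lower at -0.46, but its adjusted p was 0.322 with a pseudocount of 0.1, and it missed the threshold without cytochalasin D 4N library 2 or untreated 2N library 3 (up to 0.0553).

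**Figure D4:**
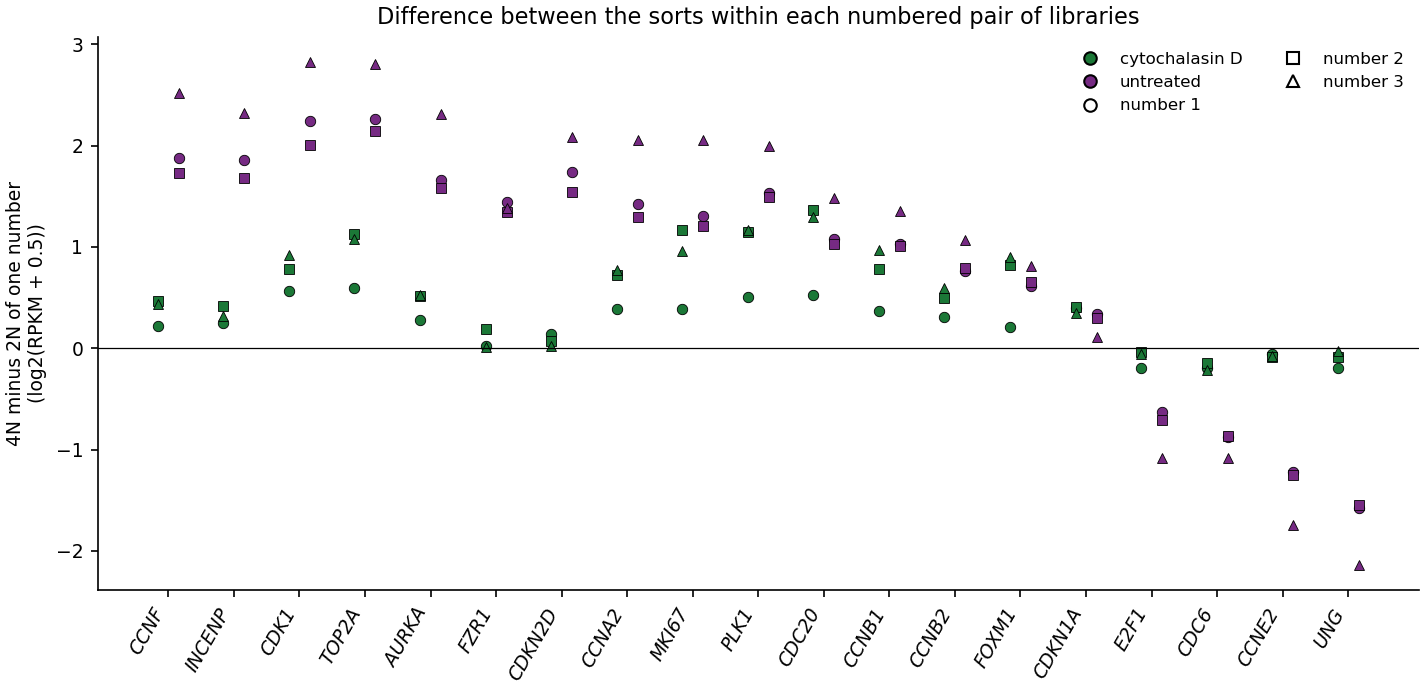
Difference between the 4N and 2N library of the same number on the log2(RPKM + 0.5) scale for 19 genes, cytochalasin D left of untreated, with symbols giving the number. For CCNF, INCENP and CDKN2D the 3 cytochalasin D differences lie below all 3 untreated ones, for UNG and CCNE2 they lie above, and for CDC20 and FOXM1 they overlap.

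The separation of the within-number differences was counted for all genes. The 3 within-number differences under cytochalasin D all lay below the 3 untreated ones for 3564 genes (27.3%) and all above them for 1540 (11.8%). Among the 788 genes called lower this held for 787, and for the 235 called higher it held for all 235, against those backgrounds. The same values chose the calls, so nothing further is read from it.

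Promoter letters are shown for genes whose change was large and for which a RefSeq window was at hand (GRCh38.p14, 250 bases before to 50 after the start), since CHR and E2F elements are the known switches of these programmes. Capitals mark the CHR letters TTTGAA or TTCGAA, the CCAAT box and the E2F letters TTTCGCGC, TTTGGCGC, TTTCCCGC, TTCCCGCC or TTGGCGCC, each searched on both strands, and an E2F match can overlap a CCAAT box. CCNF, INCENP and CDK1 were called lower, UNG and CDC6 higher.
CCNF, chr16:2429197-2429496, + strand: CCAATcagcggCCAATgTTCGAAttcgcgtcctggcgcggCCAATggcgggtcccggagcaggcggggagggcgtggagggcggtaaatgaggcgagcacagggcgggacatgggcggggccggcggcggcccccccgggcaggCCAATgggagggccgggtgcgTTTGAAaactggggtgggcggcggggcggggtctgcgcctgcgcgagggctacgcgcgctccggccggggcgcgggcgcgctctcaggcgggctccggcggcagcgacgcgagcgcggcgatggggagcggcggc
INCENP, chr11:62123761-62124060, + strand: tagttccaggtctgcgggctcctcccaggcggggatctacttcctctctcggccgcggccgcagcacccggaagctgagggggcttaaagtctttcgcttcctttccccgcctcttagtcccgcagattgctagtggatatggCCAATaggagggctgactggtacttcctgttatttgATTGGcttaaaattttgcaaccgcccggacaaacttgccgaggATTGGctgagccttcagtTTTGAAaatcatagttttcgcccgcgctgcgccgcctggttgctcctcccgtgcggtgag
CDK1, chr10:60778081-60778380, + strand: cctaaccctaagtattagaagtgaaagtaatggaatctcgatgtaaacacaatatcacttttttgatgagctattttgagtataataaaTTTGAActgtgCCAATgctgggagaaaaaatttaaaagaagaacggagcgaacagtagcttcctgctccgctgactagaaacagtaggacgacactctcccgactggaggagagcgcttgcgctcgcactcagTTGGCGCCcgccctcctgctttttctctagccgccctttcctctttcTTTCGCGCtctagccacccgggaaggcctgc
CDK1, chr10:60778228-60778527, + strand: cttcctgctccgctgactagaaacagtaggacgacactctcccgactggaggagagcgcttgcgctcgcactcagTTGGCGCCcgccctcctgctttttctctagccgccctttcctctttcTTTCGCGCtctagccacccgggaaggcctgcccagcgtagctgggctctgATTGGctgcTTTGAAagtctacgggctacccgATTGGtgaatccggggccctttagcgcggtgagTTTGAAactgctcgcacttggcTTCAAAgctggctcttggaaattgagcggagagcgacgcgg
UNG, chr12:109097347-109097646, + strand: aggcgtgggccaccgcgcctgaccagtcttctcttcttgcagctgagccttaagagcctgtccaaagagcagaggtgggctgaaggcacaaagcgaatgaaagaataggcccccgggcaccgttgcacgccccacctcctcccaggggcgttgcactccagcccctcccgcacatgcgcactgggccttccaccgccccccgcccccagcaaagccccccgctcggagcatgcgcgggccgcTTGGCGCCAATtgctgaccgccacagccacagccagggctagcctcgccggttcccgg
UNG, chr12:109097922-109098221, + strand: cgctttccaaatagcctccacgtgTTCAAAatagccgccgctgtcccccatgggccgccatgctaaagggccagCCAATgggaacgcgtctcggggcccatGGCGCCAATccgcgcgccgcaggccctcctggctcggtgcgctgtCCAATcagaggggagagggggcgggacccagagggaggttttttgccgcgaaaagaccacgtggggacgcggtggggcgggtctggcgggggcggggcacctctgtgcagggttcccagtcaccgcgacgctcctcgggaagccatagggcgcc
CDC6, chr17:40287629-40287928, + strand: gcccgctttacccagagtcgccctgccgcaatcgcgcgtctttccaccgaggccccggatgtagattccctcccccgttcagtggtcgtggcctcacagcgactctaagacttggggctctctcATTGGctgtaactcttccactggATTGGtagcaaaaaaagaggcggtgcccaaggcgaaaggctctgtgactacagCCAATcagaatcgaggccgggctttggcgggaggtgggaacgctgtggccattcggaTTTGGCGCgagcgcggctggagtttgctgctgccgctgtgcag

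CHR letters stood in 143 of the 519 genes called lower with a window (27.6%), in 12 of the 143 called higher (8.39%) and in 920 of 6707 tested genes (13.7%), while 16.4% of all 35116 windows in the table held them. Within the 5 mitotic lists they stood in 42 of 56 members called lower (75.0%) and in 25 of 46 not called (54.3%). E2F letters stood in 13.7% of genes called lower, 16.8% of those called higher, 11.6% of tested genes and 5.73% of all windows. Of the 10 members of the G1/S and dNTP lists that were called higher and had a window, 8 held E2F letters. CCAAT boxes stood in 53.6% of genes called lower, 47.6% called higher, 43.1% of tested genes and 34.6% of all windows. A gene was counted when any of its windows held the letters, so the shares of genes and of single windows are unlike measures. These shares describe letters in a window and no test was run on them.

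Tubulins form the spindle microtubules. Of 20 members 16 were tested, 4 were called lower and 0 higher, with a median of -0.45, and with the block by culture 9 were called lower against 10.9% of all genes. TUBB4B, a beta-tubulin, had 38.1, 37.8 and 34.9 RPKM in cytochalasin D 4N cells and 41.0, 33.1 and 33.1 in cytochalasin D 2N cells, against 372, 352 and 380 in untreated 4N cells and 211, 215 and 209 in untreated 2N cells. The cytochalasin D sorts overlapped, at levels far below both untreated sorts, and the interaction was -0.75 (SE 0.17, limma adjusted p = 0.0153). It lost the call after quantile normalization (0.0719), without the numbered pairs cytochalasin D 3 (0.0521), untreated 1 (0.0731) or untreated 3 (0.0806), and without both untreated libraries numbered 3 and both cytochalasin D libraries numbered 1 (0.157). TUBB2B, TUBB4A and TUBB6 were called lower at -0.66, -0.60 and -0.59, and TUBB2B lost its call when any 1 of 5 libraries was left out (adjusted p up to 0.0711). Without those same 4 libraries 1 tubulin was called lower, and TUBB4A missed the threshold (0.0601). TUBA1B, an alpha-tubulin, had -0.25 (adjusted p = 0.766). Reads of close tubulin paralogs may be shared.

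Centriole genes gave 4 called lower of 9 tested and 0 higher, and 1 lower when both untreated libraries numbered 3 and both cytochalasin D libraries numbered 1 were left out. CNTROB, which builds daughter centrioles, was called lower at -0.89 (limma adjusted p = 2.76e-05) and overlaps TRAPPC1 on the opposite strand. PLK4, the kinase that starts centriole duplication, was called lower at -0.67, but its adjusted p was 0.548 in RPM, and 5 single libraries each ended its call when left out (up to 0.0636). The appendage genes ODF2 and CEP164 were called lower at -0.32 and -0.25, and ODF2 missed the threshold without both cytochalasin D libraries numbered 2 or both untreated libraries numbered 3 (adjusted p = 0.0528 and 0.0719).

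Targets of p53, which tetraploid cells are known to induce, gave few calls. Of 45 members 34 were tested, 1 was called higher and 0 lower, with a median interaction of 0.14. PIDD1, the sensor of extra centrosomes, was the member called higher (0.36, limma adjusted p = 0.0325, and up to 0.0883 when any 1 of 8 libraries was left out), and it overlaps the highly expressed RPLP2 on the opposite strand. CDKN1A (p21) had 106, 49.0 and 49.4 RPKM in cytochalasin D 4N cells and 80.3, 36.9 and 38.6 in cytochalasin D 2N cells, against 22.5, 22.7 and 11.4 in untreated 4N cells and 17.8, 18.4 and 10.5 in untreated 2N cells. Within each number of each treatment the 4N value was above the 2N value. The libraries that stood apart differed from the others of their groups by more than the sorts did. The interaction was 0.14 (95% interval -1.52 to 1.79, adjusted p = 0.962), so an effect of either sign was not detectable. On average 29 of the 34 members were higher in 4N than in 2N cells under cytochalasin D and 16 of 34 in untreated cells, against 46.6% and 60.8% of all tested genes. With the block by culture 6 were called higher and 3 lower, against 3.84% and 10.9% of all genes.

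Genes of the actin and adhesion response were mostly not called. Of 40 tested SRF-MRTF and actin genes 1 was called lower, the capping subunit CAPZA1 (-0.37, limma adjusted p = 0.00837; 0.0598 without the cytochalasin D pair numbered 2 and 0.105 without both untreated libraries numbered 3 and both cytochalasin D libraries numbered 1). At an unadjusted p under 0.05, 8 were lower and 0 higher, against 14.5% and 5.49% of all tested genes, the background of every unadjusted list count. On average 11 of the 40 were higher in 4N cells under cytochalasin D and 36 of 40 in untreated cells, against 46.6% and 60.8% of all tested genes, and 11 were called lower with the block, against 10.9%. Beta-actin (ACTB) had an interaction of -0.17 (adjusted p = 0.587) and SRF itself 0.18 (adjusted p = 0.528). Of 22 tested YAP-TEAD targets 0 were called by limma, 5 passed at an unadjusted p under 0.05, and 10 were called lower with the block, against 10.9%. CCN1 and CCN2, the best known of them, had 0.15 and 0.12.

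Inflammatory, interferon and stress genes gave few calls. CCL2, a chemokine for monocytes, was called higher at 1.12 (SE 0.21, limma adjusted p = 0.00449; 0.0620 without both untreated libraries numbered 3 and both cytochalasin D libraries numbered 1). It had 24.1, 22.0 and 20.3 RPKM in cytochalasin D 4N cells and 28.2, 26.1 and 21.5 in cytochalasin D 2N cells, against 5.78, 5.35 and 5.38 in untreated 4N cells and 13.4, 13.8 and 15.6 in untreated 2N cells. Untreated sorts were separate and cytochalasin D sorts overlapped at a higher level. RELA, a subunit of NF-kB, was called lower at -0.37, the interferon-stimulated gene SAMD9L at -0.67, and the stress factor ATF4 at -0.50, which missed the threshold without both untreated libraries numbered 3 (adjusted p = 0.0518). SAMD9L lost its call when any 1 of 10 libraries was left out (adjusted p up to 0.105). The heat shock list had 1 of 32 called higher, the small chaperone HSPB8 (0.18), and 0 lower, and HSPB8 lost its call when any 1 of 10 libraries was left out (adjusted p up to 0.114). Immediate early genes had 0 of 35 called by limma and 2 lower at an unadjusted p under 0.05. With the block by culture, against 3.84% higher and 10.9% lower of all genes, 2 immediate early genes were called higher and 7 lower, 1 heat shock gene higher and 6 lower, 1 of 30 ER stress genes higher and 4 lower, 1 of 26 interferon-stimulated genes higher and 4 lower, and 3 of 16 NF-kB and secreted genes higher and 1 lower. BCL2 family genes had 0 of 11 called, with 1 higher and 1 lower at an unadjusted p under 0.05, and FOXO and PI3K-mTOR genes had 0 of 15, with 2 higher. The block gave 1 higher and 1 lower of the BCL2 family and 1 higher of the FOXO list. BMF, a killer of the BCL2 family, had an interaction of 1.14 with an adjusted p of 0.196 (0.00462 with the block by culture).

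Metabolic, lysosomal and matrix lists had 0 calls in either direction by limma. At an unadjusted p under 0.05 there were 0 of 31 cholesterol and fatty acid genes, 5 lower of 42 lysosome and autophagy genes, 0 of 28 matrix genes and 1 higher and 3 lower of 29 glycolysis genes. With the block by culture 7 matrix genes, 2 cholesterol and fatty acid genes and 1 glycolysis gene were called lower, and 1 lysosome and autophagy gene lower and 1 higher, against 10.9% lower and 3.84% higher of all genes. On average 1 of the 31 cholesterol and fatty acid genes was higher in 4N cells under cytochalasin D and 14 of 31 in untreated cells, against 46.6% and 60.8% of all tested genes. Without the 6 libraries that stood apart, 28 of the 31 were called down in 4N cells within cytochalasin D, against 3.57% of all genes, and 18 were called lower in the interaction, against 15.7%.

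Cytosolic ribosomal protein genes gave 0 calls among 79 tested by limma, with 2 lower at an unadjusted p under 0.05 and a median of -0.03. Nucleolar ribosome biogenesis genes gave 3 called higher and 0 lower of 35, against 1.8% and 6.04% of all tested genes, with a median of 0.11. The 3 were GNL3 (0.57), the polymerase I subunit POLR1E (0.33) and RRP12 (0.27), and RRP12 lost its call with the block by culture (adjusted p = 0.0843). RRP12 also lost it when any of the 12 libraries was left out (up to 0.108), and GNL3 lost its call when any 1 of 4 was (up to 0.0577). Mitochondrially encoded transcripts gave 0 calls of 15, also at an unadjusted p under 0.05. Replication-dependent histones were measured from polyadenylated RNA, which most of their transcripts lack. Of 12 tested, 2 were called higher, H2AC25 (0.92) and H2AC11 (0.82), and 0 lower, against 1.8% and 6.04% of all tested genes. H2AC11 missed the threshold without the cytochalasin D pair numbered 3 (adjusted p = 0.0543). With the block 2 histone genes were called higher and 1 lower, against 3.84% and 10.9%. PDGFRB, a receptor of mesenchymal cells, was called higher at 0.76 among 6 tested fibroblast markers and PAX6 lower at -0.37 among 10 tested markers of the pigment epithelium. PDGFRB missed the threshold when any 1 of 7 libraries was left out (adjusted p up to 0.0718), and PAX6 when any 1 of 9 was (up to 0.0826). With the block by culture 4 epithelial markers were called lower, and 1 fibroblast marker higher and 2 lower. The shares over all genes were 10.9% lower and 3.84% higher. A separate list of 16 epithelial markers, 8 of them tested and without PAX6, was summed. Its level was 159 to 196 RPKM in cytochalasin D 4N cells and 175 to 203 in cytochalasin D 2N cells. In untreated cells it was 133 to 158 in 4N and 149 to 162 in 2N cells. BEST1 made up the larger part of this sum under cytochalasin D. It averaged 117 and 124 RPKM in cytochalasin D 4N and 2N cells, against 50.4 and 50.5 in untreated 4N and 2N cells. OTX2 and RDH10 were also higher under cytochalasin D in both sorts, but PMEL, KRT8, KRT18, EZR and CDH2 were lower, so the sum does not describe the markers as a set. The part of this list in the results was not tested.

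The calls in the 2 directions differed in gene class, a count made after the values were seen. The kit did not mark strand, so reads of antisense or divergent transcripts cannot be told from those of opposite-strand genes they overlap. Of 7750 protein-coding genes 631 (8.14%) were called lower and 125 (1.61%) higher. Of 1848 long noncoding genes 75 (4.06%) were called lower and 82 (4.44%) higher, and they made up 34.9% of the genes called higher and 9.52% of those called lower. Transcripts named as divergent from a neighbouring gene (-DT) gave 18 called higher (21.4%) and 4 lower (4.76%) of 84, and snoRNA host genes (SNHG) gave 4 higher (20.0%) and 0 lower of 20. Leaving out any 1 library gave 10 to 17 divergent transcripts and 2 or 3 host genes called higher, the 10 without untreated 2N library 3. Long noncoding genes gave 46 called higher without that library. With the block by culture 136 long noncoding genes were called higher and 168 lower, against 3.84% and 10.9% of all genes, and 6 host genes higher.

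**Figure D5:**
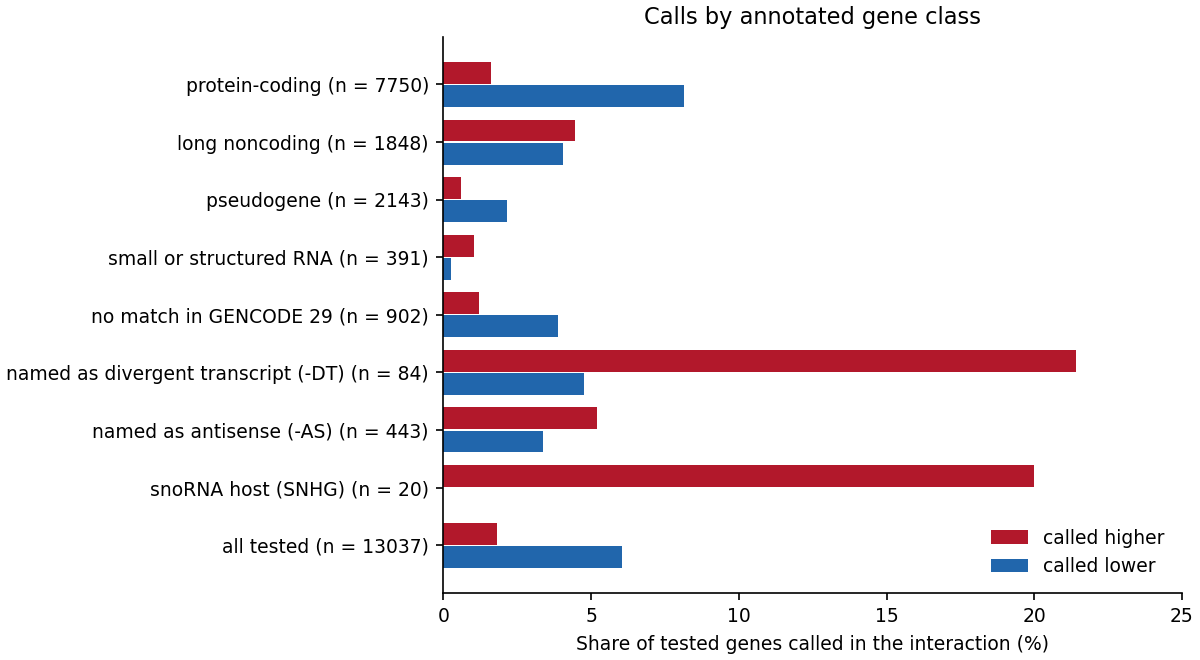
Share of tested genes called lower and higher in the interaction for each annotated gene class, with the number tested beside each class. Protein-coding genes reach 8.14% lower and 1.61% higher, and divergent transcripts reach 21.4% higher.

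Among these transcripts ZMPSTE24-DT (0.88), TBC1D22A-DT (1.54), SNHG19 (1.11) and SNHG3 (1.09) were called higher. SYNM-AS2 had 3.72, 5.77 and 5.35 RPKM in cytochalasin D 4N cells and 3.34, 3.86 and 4.11 in cytochalasin D 2N cells, against 1.58, 1.6 and 1.54 in untreated 4N cells and 3.37, 3.21 and 3.93 in untreated 2N cells, with an interaction of 1.28 (SE 0.20, limma adjusted p = 0.00139). Its step was upward within every cytochalasin D number and downward within every untreated one. SYNM-AS2 overlaps SYNM on the opposite strand (mean 0.654 RPKM). MIR5587, within CAPN15, had the highest interaction of all tested genes (2.82) but implied between 0 and 13 reads per library, and it is not read further.

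Against the other drug the interaction gave 0 calls. The step from 2N to 4N under cytochalasin D, less that under ZM447439, was called for 0 of 13037 genes (0.0%) by limma, with a lowest adjusted p of 0.361 and 753 genes at an unadjusted p under 0.05. Without the 6 libraries that stood apart 1621 genes were called, so the difference between the drugs was not detectable with all libraries rather than shown to be absent.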

How the data were processed

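Polyadenylated RNA of sorted hTERT-RPE1 cells was sequenced in 18 libraries. The authors deposited RPKM values for 57773 identifiers. Per the submitters' processing notes the tools included CASAVA 1.8.2, TopHat2 and edgeR, with hg19, and the read counter and settings are not given in the sources used here. Of values worth under 200 reads, 85.4% to 86.1% were whole reads within 0.05 when the gene's genomic span was taken as its length, against 9.88% to 21.1% with exons, so the deposited RPKM count introns in the length, which lowers the level of genes with long introns. Depths are implied from those steps. The labels do not say more about pooling or filters.

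Genes with a mean of 0.5 RPKM or more were fitted with limma 3.58.1 in R 4.3.3 on log2(RPKM + 0.5), with 6 group means over 18 libraries (12 residual degrees of freedom), moderated variances with a trend, and Benjamini-Hochberg adjustment. The fit was tested on simulated data. Within cytochalasin D, libraries of the same number deviated together between sorts (correlations 0.63, 0.33 and 0.40), as did untreated ones (0.19, 0.19 and 0.45). Every such pair exceeded 0.1, and the block by culture took the numbers to pair the sorts, which no label states. Some pairs of unlike numbers exceeded 0.1 too. The numbers did not always match best: libraries 2 and 3 under cytochalasin D correlated at 0.39 and 0.31 across numbers, and untreated libraries 1 and 2 at 0.22 and 0.26. A fit with the culture as a block is given where it changes a named call or moves a list's count by over 1.5 times. Other alternatives changed the pseudocount, filter, length, scaling and libraries.

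The genes named are the 12 lowest and 12 highest called with separate within-number differences, up to 3 called members of each list by size, and a set of cell cycle landmarks; other list members are named with their list. The comparison, lists and landmarks were chosen with earlier results of these data known. Symbols were found for 90.6% of identifiers, and overlapping genes were looked up in GENCODE 29. Not every overlap is named with its gene. Results for a few genes are not reported here.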

Additional observations from a re-analysis of the deposited data

Results flagged for a closer look

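For 58 of the 68 named genes the step from 2N to 4N under cytochalasin D itself differed from that in untreated cells, by limma's interaction test across all genes (adjusted p under 0.05). Apart from the landmarks, these genes were named because this same test called them, so the count follows from the choice and nothing is read from it. Over all tested genes 7.85% were called. The values are these interactions on the log2(RPKM + 0.5) scale.

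The step was lower under cytochalasin D for the mitotic regulators UBE2C (-1.81), FAM83D (-1.78), CCNF (-1.67), INCENP (-1.62), CDK1 (-1.60), HJURP (-1.57), PSRC1 (-1.56), CDCA8 (-1.52), TOP2A (-1.47), ESPL1 (-1.44), AURKA (-1.41), FZR1 (-1.32), ARHGAP11A (-1.31), AURKB (-1.19) and NCAPG (-1.06). It was lower for PIF1 (-1.90), the inhibitors CDKN2D (-1.71) and CDKN2C (-0.82), and the pseudogenes KPNA2P3 (-1.59) and KPNA2P2 (-1.56). Lower steps were also found for H2AX (-1.0) and RAD51AP1 (-0.46) among repair genes, CNTROB (-0.89), PLK4 (-0.67) and ODF2 (-0.32) among centriole genes, and TUBB4B (-0.75), TUBB2B (-0.66) and TUBB4A (-0.60) among tubulins. Lower steps were also those of SAMD9L (-0.67), ATF4 (-0.50), RELA (-0.37), CAPZA1 (-0.37) and PAX6 (-0.37).

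The step was higher under cytochalasin D for the replication and repair genes UNG (1.65), CCNE2 (1.34), FAM111B (1.08), CDC6 (0.76), E2F1 (0.71) and MSH6 (0.50), and for the histone genes H2AC25 (0.92) and H2AC11 (0.82). Among noncoding and small genes it was higher for MIR5587 (2.82), TBC1D22A-DT (1.54), RNA5SP174 (1.41), ADIRF-AS1 (1.38), SNORA31B (1.29), SYNM-AS2 (1.28), BNC2-AS1 (1.15), DCTN6-DT (1.13) and DUX4L50 (1.13). Of these, ADIRF-AS1, SYNM-AS2, BNC2-AS1 and DCTN6-DT overlap genes on the opposite strand, and the kit did not mark strand. MIR5587 and RNA5SP174 implied at most 13 and 15 reads in any of the 12 libraries and lost their calls when any 1 of 7 and of 4 libraries was left out (adjusted p up to 0.0782 and 0.0546), and SNORA31B lies within the highly expressed TPT1. The remaining higher steps were those of CCL2 (1.12), PDGFRB (0.76), GNL3 (0.57), PIDD1 (0.36), POLR1E (0.33), RRP12 (0.27) and HSPB8 (0.18).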

How the results depend on the processing

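Against the 1023 genes called in the interaction (235 higher, 788 lower), 1687 (434, 1253) were called with no filter, 685 (144 higher) with a filter of 1 RPKM, 1662 (486 higher) in RPM, and 521 lower after rescaling or 485 lower after quantile normalization. Without both cytochalasin D libraries numbered 2 or 3 the counts were 554 (113, 441) and 609 (109, 500), and without both untreated libraries numbered 1, 2 or 3 they were 601 (135, 466), 646 (488 lower) and 565 (113, 452). Without untreated number 3 and cytochalasin D number 1 together 535 (120, 415) were called, and without the 6 libraries that stood apart 2768 (720, 2048). Leaving out any 1 library gave 717 to 1131 (139 to 275 higher, 575 to 856 lower), with the fewest higher calls without untreated 2N library 3. The replicate block by culture gave 1924 (500, 1424), and 973 of the 1023 genes were called with it. Among the 68 genes named by rule the block ended the call of RRP12 and gave calls to CCND1 and CDKN1B, and it changed no other call of them. Of the other list members named in the text, NEK2 lost its call with the block, and ANLN, PCNA and BMF gained one.

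The counts for each treatment's own step were examined after the data were seen. Under cytochalasin D the count of 0 became 13 with no filter, 1 in RPM, 3 with the block, 1 without both untreated libraries numbered 2, 5 without untreated number 3 and cytochalasin D number 1, 941 without the 6 libraries, and 0 to 5 with any 1 library left out. In untreated cells the 2272 calls became 3769 with no filter, 4097 in RPM, 1186, 1305 and 1218 without both untreated libraries numbered 1, 2 and 3, 1497 without untreated number 3 and cytochalasin D number 1, and 3915 without the 6. Cytochalasin D against untreated cells gave 17182 and 14520 calls in 4N cells and 15862 and 13709 in 2N cells, with no filter and in RPM, both of which test more genes. Against ZM447439 the count of 0 became 4 with no filter, 4 without untreated number 3 and cytochalasin D number 1, 1621 without the 6, and 0 to 2 with any 1 library left out. The block by culture cannot give the contrasts between treatments within a sort.

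Of the 58 named genes called, 28 kept the call under every alternative that gave a value and 0 changed sign; 13 lost it without at least 1 single library. Signs turned for FOXM1, which was 0.030 with a pseudocount of 0.1, 0.049 in RPM, 0.0096 after rescaling, 0.058 after quantile normalization, 0.17 without both cytochalasin D libraries numbered 1, 0.010 without both untreated libraries numbered 3, and 0.23 without those 4 or the 6 libraries. Its range with any 1 library left out was -0.15 to 0.15. CDKN1A ranged from -0.23 to 0.50 and MDM2 from -0.055 to 0.37 over the 31 alternatives, and 1 of these called MDM2 (limma adjusted p = 0.00939). The cause of these changes was not tested. The effect of depth on the calls was not tested.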
